A study of Mus musculus with 8 samples.

Results

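The 10 genes described here encode the intracellular arm of TGFβ and BMP signalling. They are the receptor-regulated SMADs of the BMP branch (*Smad1*, *Smad5*, *Smad9*) and of the TGFβ and activin branch (*Smad2*, *Smad3*), the common partner *Smad4*, the inhibitory SMADs *Smad6* and *Smad7*, and the co-repressors *Ski* and *Skil*. They were taken by name from the 54307 gene rows of the count table, and all 10 were found and passed the filter on low counts that left 17669 genes. The tissue was the ventricular-subventricular zone (V-SVZ), the stem cell niche that lines the lateral ventricle, dissected as the periventricular area of 1 hemisphere from mice aged 8 weeks. The groups were 4 WT littermates (3 female, 1 male) and 4 *Lrig1* KO mice (2 female, 2 male), with 1 polyA-selected library from each mouse. The KO mice were homozygous for a CreERT2 cassette knocked in at exon 1 of *Lrig1*, which makes the loss constitutive, and the mice were kept on a 129 background (129-Elite in the study's methods). *Lrig1* encodes a transmembrane protein known for restraining growth factor receptors and for modulating BMP signalling, which the study also proposes for this niche. Each comparison of KO with WT therefore asks whether the level of a signal transducer differed between the genotypes.

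Libraries held 47887147 to 74482124 counts. The labelled tissue was checked by marker lists of 8 genes each. Markers of neural stem cells and progenitors averaged 4.24 to 4.73 log2 CPM (counts scaled to library size) in each mouse, neuroblasts 3.93 to 4.63 and ependymal cells 1.25 to 2.54. Striatal medium spiny neurons, the cells beneath this zone, averaged 7.69 to 9.37, and cortical excitatory neurons ranged from 2.58 to 7.22. By the level of the striatal score the dissections held neurons of the tissue around the niche as well. No tested marker of the 10 lists was at 0 counts in any mouse, which at this depth does not show that a cell type was present. WT replicate 2 had the highest cortical and the lowest striatal score of the 8 mice. The labels give no batch. In whole tissue of this kind, fewer cells of a type and less RNA per cell cannot be told apart.

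SMAD proteins carry the signal from receptor to nucleus. An activated type I receptor phosphorylates the receptor-regulated SMADs, which join SMAD4, enter the nucleus and bind short DNA elements in target genes. SMAD6 and SMAD7 are themselves induced by the pathway and block it at the receptor, whereas SKI and SKIL (also called SnoN) bind SMAD complexes on DNA and recruit repressors. In the adult V-SVZ, BMP signals are known for holding stem cells in quiescence and favouring glial fates. These steps run largely through phosphorylation, location and protein stability, none of which RNA-seq measures. In older *Lrig1* KO mice the study reports fewer cells with phosphorylated SMADs of either branch along the ventricle wall.

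The promoter of *Smad6* is shown because this feedback gene carries the palindromic SMAD-binding element GTCTAGAC, in capitals. The sequence runs 5′ to 3′ on the gene's strand, from 250 bases before to 50 bases after its start, at chr9:64022010-64022309 on the minus strand of GRCm38.p6, as RefSeq gives it.

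Smad6 promoter: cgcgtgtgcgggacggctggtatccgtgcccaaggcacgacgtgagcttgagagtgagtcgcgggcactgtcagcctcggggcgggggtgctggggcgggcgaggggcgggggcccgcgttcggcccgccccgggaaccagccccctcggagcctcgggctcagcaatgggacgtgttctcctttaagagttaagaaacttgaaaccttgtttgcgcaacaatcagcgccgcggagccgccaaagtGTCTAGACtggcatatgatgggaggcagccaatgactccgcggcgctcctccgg

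The element spans the annotated start, and 70 of 32851 mouse promoters of this length (0.213%) hold it on either strand. Promoters of 6 members, in 8 entries, were searched and no other one of these held it. The search of members left out a chromosome by choice, whereas the share of all promoters was taken without that limit. The promoters of *Smad2*, *Smad4*, *Smad7* and *Skil* were not looked at as members. Whether they hold the element is not known here, and *Smad6* need not be the only member with it. The shorter GGCGCC, a GC-rich element known from BMP target genes, was found once in the promoters of *Ski* and *Smad9* and in 2 of the 3 entries of *Smad5*, against 11.9% of all promoters. Those 2 entries overlap and hold the same site. Entries of the members were 63.0 to 85.3% G and C, against a median of 52.7% over all entries, so the share of all promoters is no matched background. CAGAC, the minimal SMAD-binding element, is common (49.6% of promoters) and was found in 1 entry of *Smad5*. These 3 motifs were searched on both strands and none of them contains another. A match describes the letters only.

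A stretch of *Skil* is shown because it separates the coding forms whose levels are compared below. It holds the 138 coding bases, the length of 46 codons, that transcript Skil-201 has and Skil-204 lacks, at chr3:31113503-31113640 on the plus strand of GRCm38, in Gencode M21. The stretch starts at coding base 1283 of Skil-201, inside a codon, so it is not in frame from its first letter. Its 6 first bases, in capitals, begin with GT, the letters that open most introns, and the stretch is the end of exon 4 of Skil-201.

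Skil-201 exon 4, end: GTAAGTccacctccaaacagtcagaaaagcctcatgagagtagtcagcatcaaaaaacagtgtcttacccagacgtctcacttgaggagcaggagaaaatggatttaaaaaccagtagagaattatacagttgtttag

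By mean level per length, the co-repressors were the most abundant members and the inhibitory SMADs and *Smad9* the least. Levels between genes were compared in TPM, the share of transcripts corrected for their length, summed over the transcripts of each gene, over all 8 mice. *Ski* had a mean of 50.5 ± 5.28 TPM (SD, n = 8) and lay above every other member in every mouse. This sum holds a mean of 10.8 TPM of Ski-203, a transcript with no annotated coding frame, beside 39.7 TPM of the coding Ski-201. *Skil* had 24.2 ± 3.28 and *Smad4* 23.3 ± 2.44 TPM. These did not separate, with *Skil* the higher in 5 of 8 mice. *Smad3*, a TGFβ branch SMAD, had 19.8 ± 2.32 TPM and *Smad2*, of the same branch, 17.7 ± 2.45, and *Smad3* was the higher in 6 of 8 mice. *Smad4* exceeded *Smad3* in 8 of 8 mice, although their ranges over mice overlapped.

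The BMP branch was lower. *Smad1* had 9.63 ± 1.48 TPM and *Smad5* 9.39 ± 1.57, each being the higher in 4 of 8 mice. *Smad9*, the third SMAD of that branch, had 3.11 ± 0.985 TPM. *Smad2* lay above *Smad1* in all 8 mice with no overlap of their ranges. Between the branches *Smad5* and the inhibitory *Smad7* (7.31 ± 1.51 TPM) overlapped, with *Smad5* higher in 7 of 8 mice. *Smad7* in turn exceeded *Smad9* in all 8 mice. *Smad6* was lowest, at 0.558 ± 0.192 TPM, and rested on 46 to 89 counts in each mouse. Its values are thus the least precise of the set.

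**Figure D1:**
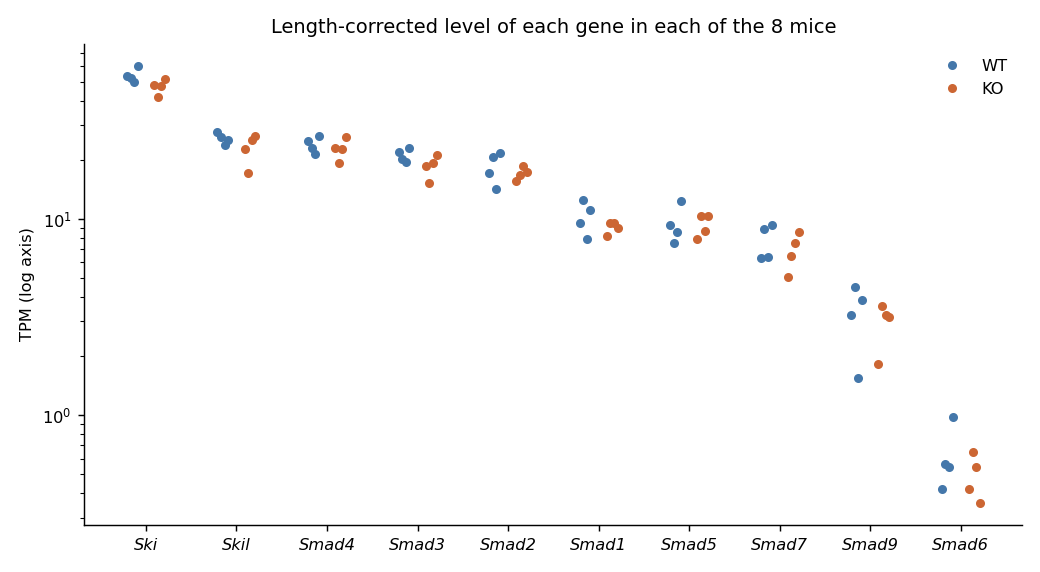
Level of each member in TPM (vertical log axis) in each of the 4 WT (blue) and 4 KO (orange) mice, in order of the mean. *Ski* stands above all others at 41.6 to 60.1 TPM, and *Smad6* lies below 1 TPM in every mouse.

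Summed by role, the co-repressors held 41.8 to 47.9% of the members' TPM in each mouse, the TGFβ branch SMADs 21.9 to 23.3%, the BMP branch SMADs 11.7 to 16.7%, *Smad4* 13.1 to 15.2% and the inhibitory SMADs 3.60 to 5.35%. The TGFβ branch exceeded the BMP branch 1.74 ± 0.104 times in WT and 1.68 ± 0.228 times in KO mice (SD, n = 4). Its lowest value was 1.36, in KO replicate 2, and the branches kept this order in every mouse. Receptor-regulated SMADs exceeded the inhibitory ones 7.61 ± 1.01 times in WT and 7.88 ± 1.19 times in KO mice. The ratio of *Smad7* to *Smad6* was 13.0 ± 2.86 in WT and 15.01 ± 6.32 in KO mice, and that of *Ski* to *Skil* was 2.10 ± 0.206 and 2.11 ± 0.238. For each of these 4 ratios the WT and KO means lay closer together than 1 SD of the KO mice.

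The knockout itself was checked first. *Lrig1* stood at 45.6, 13.5, 41.4 and 34.3 CPM in WT replicates 1 to 4 and at 1.41, 4.15, 1.17 and 2.96 CPM in KO replicates 1 to 4. Every KO mouse lay below every WT mouse, with a log2 fold change of -3.80 (SE 0.52). WT replicate 2 was the lowest WT mouse. The adjusted p was 0.286 (edgeR's quasi-likelihood test, Benjamini-Hochberg), above the threshold of 0.1. *Lrig1* was called by DESeq2, both without covariates (adjusted p = 4.13e-08) and with sex (7.04e-97). It was also called by edgeR with sex (0.000176) or the cortical score (0.0046) as a covariate. The same held for edgeR in females alone (0.0139), without the filter (0.0979) and without WT replicate 2 (0.0623). A two-sided exact permutation test gave 0.029, the smallest p that 4 against 4 mice allow.

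None of the 10 members passed the test of KO against WT. With edgeR 0 of 10 passed an adjusted p of 0.1, 0 of 10 had an unadjusted p under 0.05, and DESeq2 also called 0, while 0.00566% of all genes tested passed the first threshold and 1.88% the second. In all 10 the WT and KO ranges overlapped, against 1.53% of all genes whose ranges did not. Fitted changes were small: 8 members were fitted below 0 and 2 above, between -0.29 and 0.045 on the log2 scale, with a median of -0.094 where that of all genes was -0.000942. Each adjusted p was 1.0 (edgeR). The p-values given for single members are two-sided exact permutation tests of the mean CPM over the 8 mice, which cannot go below 0.029.

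**Figure D2:**
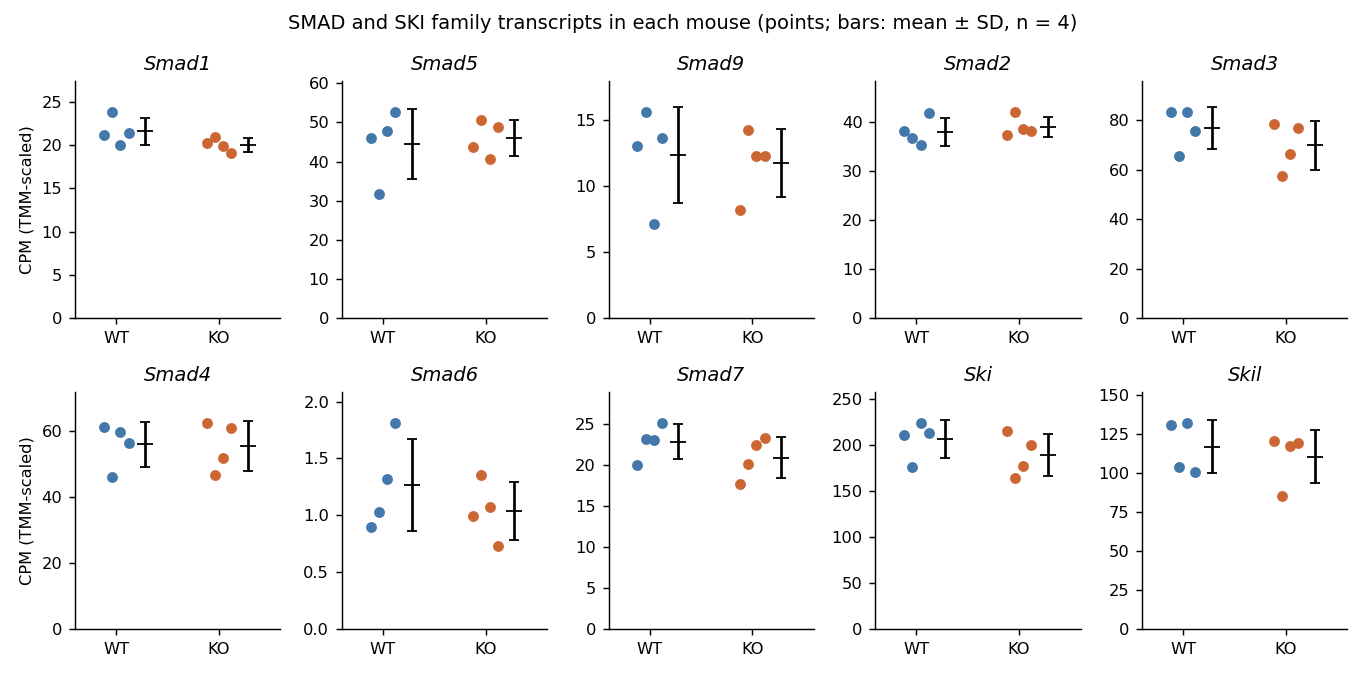
TMM-scaled CPM of each member in each WT (blue) and KO (orange) mouse, with the mean ± SD of 4 mice beside each group and vertical axes that start at 0. In all 10 panels the groups overlap, and the lone low KO point of *Skil* is replicate 2, at 85.1 CPM.

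Of the BMP branch, *Smad1* was measured at 21.1, 23.8, 20.0 and 21.3 CPM in WT replicates 1 to 4 and at 20.3, 20.96, 19.9 and 19.0 CPM in KO replicates 1 to 4. It was among the steadiest members, and the groups overlapped over a narrow range. Its log2 fold change was -0.11 (SE 0.077, exact permutation p = 0.114), with a 95% interval of the fold from 0.823 to 1.05. *Smad5* gave 46.1, 31.7, 47.7 and 52.6 CPM in WT and 43.7, 50.7, 40.6 and 48.9 CPM in KO mice. WT replicate 2 alone lay below every KO mouse. An exon of *Smad5* overlaps the small RNA gene *Gm27301* on the same strand, so reads there cannot be told apart. The log2 fold change of *Smad5* was 0.045 (SE 0.15, exact permutation p = 0.83), and it was -0.088 without that mouse. *Smad9* gave 13.0, 15.6, 7.12 and 13.6 CPM in WT and 8.18, 14.2, 12.3 and 12.2 CPM in KO mice, so each group had 1 low mouse and the others lay close together. Its log2 fold change was -0.073 (SE 0.25, exact permutation p = 0.714), with an interval of the fold from 0.642 to 1.41.

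Of the TGFβ branch, *Smad2* was measured at 38.4, 36.8, 35.3 and 41.9 CPM in WT and at 37.4, 42.1, 38.7 and 38.3 CPM in KO mice. These are nearly the same range, with a log2 fold change of 0.038 (SE 0.075, exact permutation p = 0.514) and a fold between 0.913 and 1.16 at 95%. *Smad3* gave 83.4, 65.7, 83.4 and 75.5 CPM in WT and 78.5, 57.6, 66.5 and 76.9 CPM in KO mice. KO replicate 2 was the lowest mouse and WT replicate 2 the next. The log2 fold change of *Smad3* was -0.14 (SE 0.12, exact permutation p = 0.314), with an interval of the fold from 0.753 to 1.09. *Smad4*, which both branches share, gave 61.1, 46.1, 59.7 and 56.4 CPM in WT and 62.4, 46.5, 51.7 and 60.8 CPM in KO mice. The means were 55.8 ± 6.78 and 55.3 ± 7.56 CPM, and the log2 fold change was -0.012 (SE 0.12, exact permutation p = 0.971).

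*Smad6*, which chiefly restrains BMP signals, gave 0.899, 1.03, 1.32 and 1.81 CPM in WT and 0.996, 1.35, 1.07 and 0.725 CPM in KO mice. The lowest and the next lowest mouse came from different genotypes. Its log2 fold change was -0.29 (SE 0.28, exact permutation p = 0.429), and the interval of the fold was wide, from 0.530 to 1.27. With 1 mouse left out it spanned -0.44 (without KO replicate 2) to -0.061 (without WT replicate 4). *Smad7*, which restrains both branches, gave 20.0, 23.2, 23.0 and 25.2 CPM in WT and 17.7, 20.1, 22.5 and 23.3 CPM in KO mice. The KO values ran lower by less than the spread between mice, with a log2 fold change of -0.13 (SE 0.11, exact permutation p = 0.314) and a fold between 0.770 and 1.08.

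*Ski* gave 211, 176, 224 and 213 CPM in WT and 215, 164, 178 and 200 CPM in KO mice. The groups overlapped widely, and WT replicate 2 again sat below the other WT mice. Its log2 fold change was -0.13 (SE 0.11, exact permutation p = 0.314), with an interval of the fold from 0.771 to 1.09. *Skil* gave 131, 104, 132 and 101 CPM in WT and 121, 85.1, 117 and 119 CPM in KO mice. Apart from KO replicate 2, the KO mice lay within the WT range. The log2 fold change was -0.081 (SE 0.14, exact permutation p = 0.714), and it was 0.026 without that mouse.

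**Figure D3:**
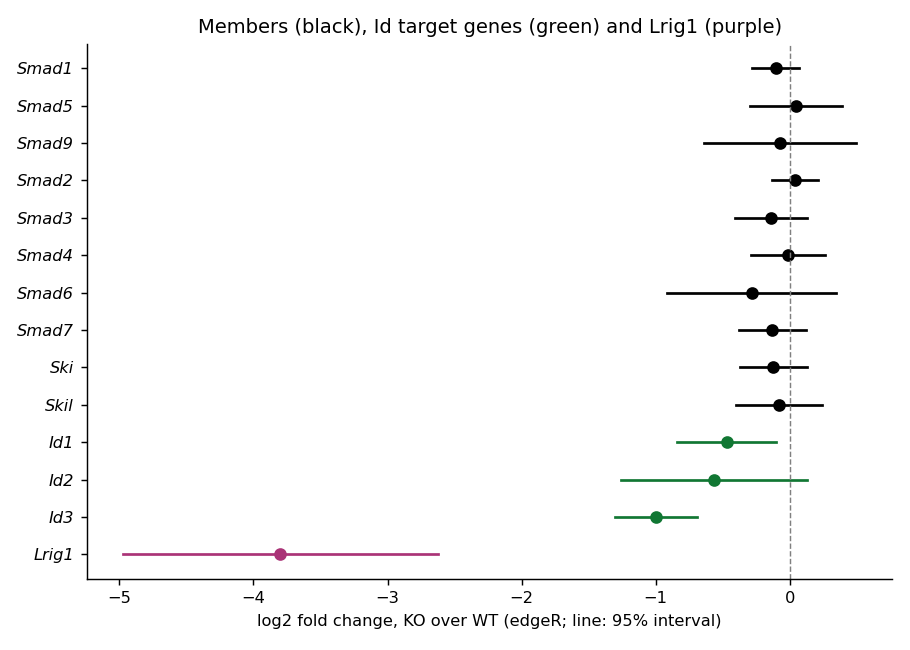
Fitted log2 fold change of KO over WT with its 95% interval for the 10 members (black), the target genes *Id1*, *Id2* and *Id3* (green) and *Lrig1* (purple). Every member's interval holds 0, and *Smad6* and *Smad9* have the widest of them.

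The intervals set what these 8 mice could show. For 8 of the 10 members the 95% interval of the fold lay within 0.753 and 1.31, and it was wider for *Smad6* and *Smad9*. Sex was not balanced between the groups. The cortical score also went with sex, as every male lay above every female. The lowest male, KO replicate 1, had 5.40 and the highest female, WT replicate 1, had 5.15. In fits with sex or of females alone, sex and cortical content therefore cannot be told apart. Among the 5 females alone the log2 fold change of *Ski* was -0.24, which gave the smallest unadjusted p of any member in 200 fits under 20 alternatives. Its adjusted p there was 0.844 (edgeR).

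Gene counts do not show which form of a gene is made, so the share of each member's TPM held by its leading transcript was compared as well. *Smad6* and *Smad9* had 1 transcript above 0 TPM. In *Smad1*, *Smad3*, *Smad4*, *Smad5* and *Smad7* the leading transcript held a mean of 94.9 to 99.4% in each genotype. *Ski*, *Skil* and *Smad2* were made in several forms. Of these 8 members 0 had an exact permutation p under 0.05. The smallest was that of *Smad5*, whose leading transcript held 94.6, 96.4, 94.2 and 94.4% in WT and 97.3, 96.6, 97.9 and 94.8% in KO mice. The means of *Smad5* differed by 1.77 percentage points, with WT replicate 2 and KO replicate 4 in the other genotype's range (two-sided exact permutation p = 0.0571, and 0.457 adjusted over the 8 shares). As a share of estimated reads the difference was 0.919 percentage points (exact permutation p = 0.229). For *Smad2* the share of the leading transcript differed by -4.09 percentage points, KO minus WT (exact permutation p = 0.429), and by -7.78 without WT replicate 4 (exact permutation p = 0.029).

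*Skil* was made in its long and its short coding form, 2025 and 1887 coding bases, which differ by the stretch printed above. Of the TPM of both, the short Skil-204 held 27.4, 40.6, 36.1 and 34.5% in WT and 35.9, 33.3, 35.2 and 33.7% in KO mice. The genotype means were alike, 34.6 ± 5.48% and 34.5 ± 1.25%, and the WT mice spread more widely. *Smad2* also had a shorter coding form, with 1311 in place of 1401 coding bases, which lacks the whole of exon 3 (90 bases). The protein without it is known to bind DNA directly, as SMAD3 does, whereas full-length SMAD2 does so poorly. Of the TPM of this form and the 2 transcripts with the full coding length, it held 35.3, 26.1, 27.7 and 33.5% in WT and 32.4, 34.7, 26.1 and 33.3% in KO mice. The groups spanned nearly the same range (30.7 ± 4.45% and 31.6 ± 3.79%). In *Ski* the second transcript, Ski-203, is annotated as a processed transcript with no coding frame, and of the TPM of Ski-201 and Ski-203 it held 12.8 to 27.6% in WT and 15.7 to 24.3% in KO mice. Salmon assigns reads shared by transcripts by a statistical estimate, so these shares carry an error beyond the spread between mice.

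**Figure D4:**
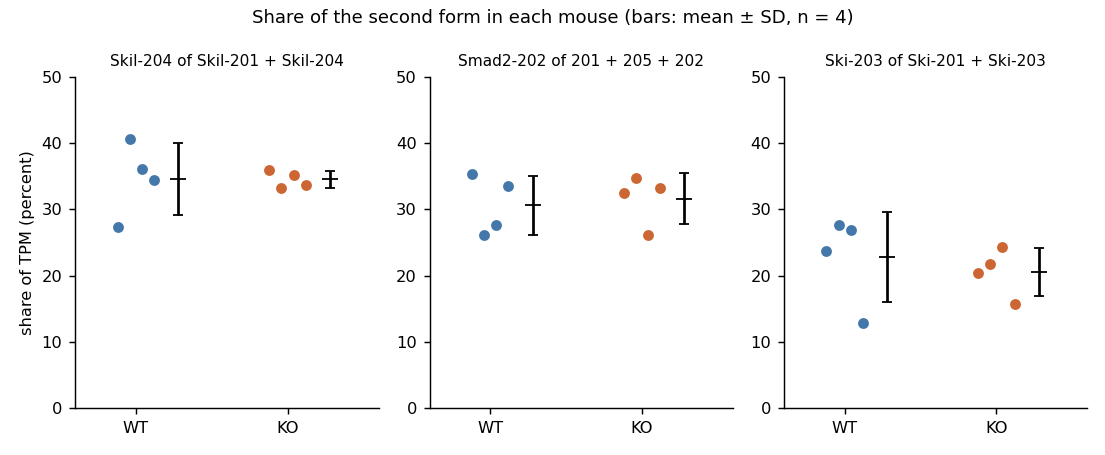
Share (percent of TPM) of the short coding form of *Skil*, of the exon 3-lacking form of *Smad2* and of the non-coding form of *Ski* in each WT (blue) and KO (orange) mouse, with the mean ± SD of 4 mice. The groups overlap in all 3 panels, at 12.8 to 40.6%.

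The members differed in how much they varied between mice of one genotype. Set among genes of like level (within 0.5 log2 CPM), *Smad1* and *Smad2* were steady, with a within-group SD of 0.085 and 0.091 log2 CPM, at the 12.1th and 22.1th percentile. *Smad9* and *Smad5* stood highest among genes of like level, with an SD of 0.43 and 0.25, at the 89.8th and 83.2th percentile. *Skil* was at the 78.7th and the other 5 members lay between the 53.9th and 74.0th, among them *Smad6* with an SD of 0.40 at its low level.

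*Smad3*, *Smad4* and *Ski* varied together between mice. Over the 8 mice 45 pairs of members were compared by log2 CPM, and 4 pairs, all among these 3 genes and *Skil*, had an adjusted p of Pearson's r under 0.1 (exact permutation, Benjamini-Hochberg). *Smad3* and *Ski* had r = 0.96 (exact p = 0.00109, adjusted 0.0491) and rho = 0.81 (exact p = 0.0218, adjusted 0.259). Without the 2 mice furthest from the median of *Smad3*, WT replicate 2 and KO replicate 2, r was 0.90. *Smad3* and *Smad4* had r = 0.92 (exact p = 0.00300, adjusted 0.0675) and rho = 0.86 (exact p = 0.0107, adjusted 0.241), with r = 0.86 without the same mice. *Smad4* and *Ski* had r = 0.90 (exact p = 0.00685, adjusted 0.0770) and rho = 0.71 (exact p = 0.0576, adjusted 0.259), with r = 0.75 without them. *Smad3* and *Skil* had r = 0.85 (exact p = 0.00670, adjusted 0.0770) and rho = 0.90 (exact p = 0.00456, adjusted 0.205), but r fell to 0.52 without them and so rested on those mice. The other pairs with *Skil* did not pass, with r = 0.77 for *Smad4* (exact p = 0.0225, adjusted 0.203) and 0.71 for *Ski* (exact p = 0.0457, adjusted 0.294), and r = 0.44 and 0.19 without those mice. By rho 0 of the 45 pairs passed after adjustment. *Smad1*, *Smad5*, *Smad6*, *Smad7* and *Smad9* were in none of these pairs, and neither was *Smad2*.

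Several members were related to levels of cell type markers. Each member was set against 10 marker scores, the mean log2 CPM of a list, which gave 100 relations. In 7 of them the adjusted p of r was under 0.1, and in 1 that of rho was as well. By rho alone *Smad3* with the striatal neuron score also passed (rho = 0.95, exact p = 0.00114, adjusted 0.0570, and r = 0.78, exact p = 0.0197, adjusted 0.152), with r = 0.92 without WT replicates 2 and 3. The relation that passed by both was *Ski* with the microglia score (r = 0.99, exact p = 0.000223, adjusted 0.0223 and rho = 0.95, exact p = 0.00114, adjusted 0.0570), and r was 0.98 without KO replicates 2 and 3, the mice furthest from the median of that score. The microglia score itself ranged only from 4.999 to 5.49. *Smad3* followed the same score (r = 0.94, exact p = 0.00129, adjusted 0.0322, and rho = 0.74, exact p = 0.0458, adjusted 0.286), and r was 0.92 without those mice. *Smad4* followed the striatal neuron score (r = 0.89, exact p = 0.00104, adjusted 0.0322, and rho = 0.83, exact p = 0.0154, adjusted 0.128), and r was 0.95 without WT replicates 2 and 3. *Skil* followed the oligodendrocyte score (r = 0.94, exact p = 0.00107, adjusted 0.0322, and rho = 0.90, exact p = 0.00456, adjusted 0.114), with r = 0.82 without WT replicate 4 and KO replicate 2.

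*Smad5* was related to other cell types. *Smad5* followed the astrocyte score (r = 0.85, exact p = 0.00241, adjusted 0.0481, and rho = 0.90, exact p = 0.00456, adjusted 0.114). It also followed the neuroblast score (r = 0.86, exact p = 0.00367, adjusted 0.0612, and rho = 0.86, exact p = 0.0107, adjusted 0.119). Against the cortical neuron score *Smad5* ran the other way (r = -0.83, exact p = 0.00620, adjusted 0.0886, and rho = -0.83, exact p = 0.0154, adjusted 0.128). WT replicate 2, with the most cortical marker RNA, is the mouse with the least *Smad5*. Without the 2 mice furthest from the median of each score, r was 0.86, 0.72 and -0.78 for these 3 relations. All values of a mouse come from 1 library. With the cortical or the striatal score as a covariate of the comparison of KO with WT, 0 members were called, and *Smad5* was fitted at -0.038 and 0.059 on the log2 scale.

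**Figure D5:**
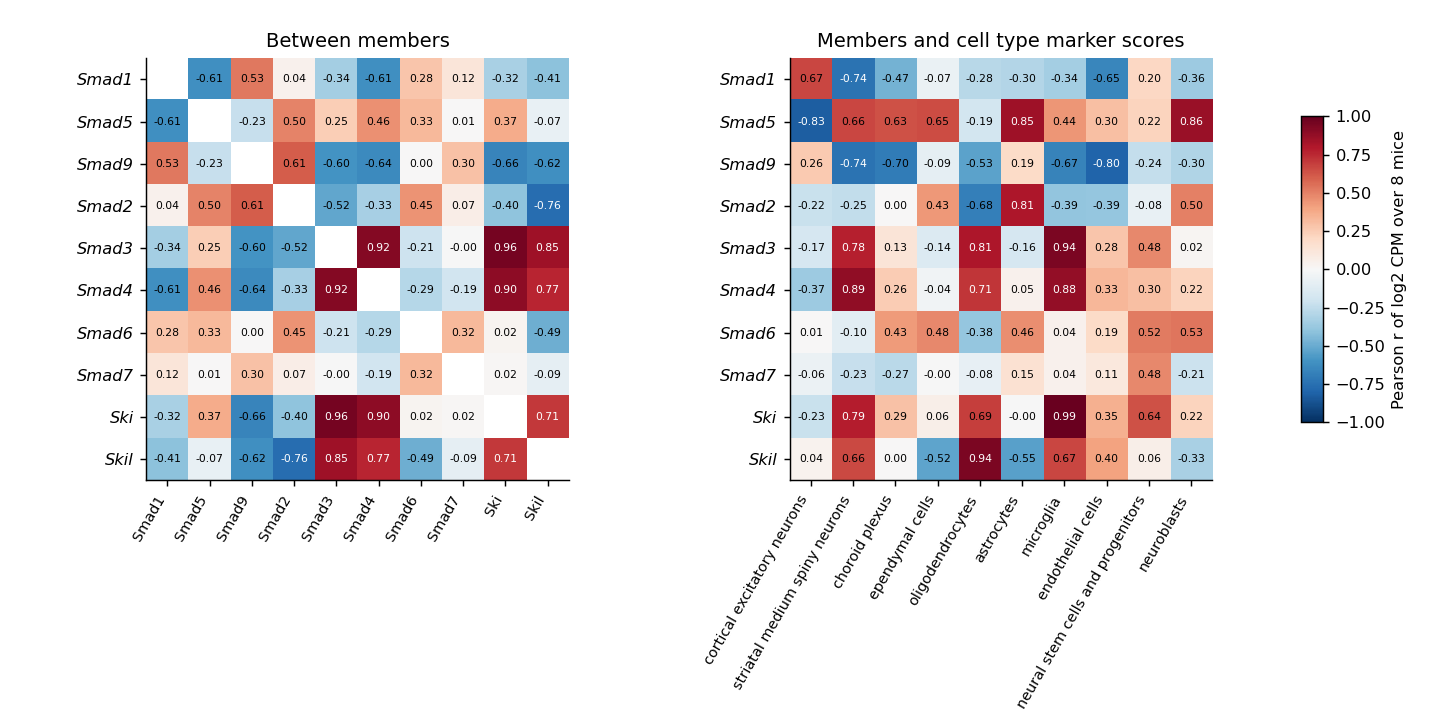
Pearson's r of log2 CPM over 8 mice between members (left) and between members and marker scores of 10 cell types (right), red for positive and blue for negative. The 3 pairs among *Smad3*, *Smad4* and *Ski* are deep red (0.90 to 0.96), and *Smad5* is blue against cortical neurons (-0.83) and red against astrocytes (0.85).

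For each member the gene with the most similar profile over the 8 mice, by Pearson's r of log2 CPM, was found among tested genes with a mean of at least 1 CPM, as a description. *Smad5* was most like *Ppfia4* and *Smad4* most like *C630043F03Rik* (r = 0.99 for both). *Skil* was most like *Ano3* (0.99), *Ski* like *Fbxl16* (0.98), *Smad3* like *Jcad* (0.98), *Smad2* like *Wasf3* (0.97), *Smad6* like *Elmod3* (0.97), *Smad9* like *Atp8a2* (0.97), *Smad7* like *Ttf1* (0.96) and *Smad1* like *Dnajc30* (0.95). No member was the nearest gene of another.

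The other genes of the pathway gave the setting. Among genes that act on SMAD proteins (ubiquitin ligases, deubiquitinases, phosphatases, anchors, nuclear partners and SKI relatives) 41 of 44 listed were tested. With edgeR 0 of them were called and 0 had an unadjusted p under 0.05, with a median log2 fold change of -0.013. Of 13 TGFβ and BMP receptors 0 were called and 0 had an unadjusted p under 0.05, with a median of -0.065. Of these regulators and receptors, DESeq2 with sex called 1, the nuclear partner *Zeb2*, a repressor that binds SMADs (log2 fold change -0.44, adjusted p = 0.0749). The edgeR fit without covariates put *Zeb2* at -0.28 with an adjusted p of 1.0. Neither DESeq2 without sex nor edgeR with sex called it.

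Among the target genes of the pathway 14 of 15 listed were tested, 0 were called by edgeR, and 3 had an unadjusted p under 0.05, all 3 lower in KO mice. *Id3*, which encodes an inhibitor of differentiation factors induced by BMP through SMAD1 and SMAD5, gave 20.3, 17.3, 25.4 and 23.7 CPM in WT and 10.1, 9.72, 11.6 and 11.8 CPM in KO mice. The groups did not overlap, and the log2 fold change was -1.001 (SE 0.13, adjusted p = 0.286, edgeR; two-sided exact permutation p = 0.029). DESeq2 called *Id3*, with an adjusted p of 1.1e-07. *Id1*, of the same family, had a log2 fold change of -0.47 (SE 0.16, exact permutation p = 0.0571) and *Msx1*, a homeobox target, one of -0.41 (SE 0.17, exact permutation p = 0.0571), both with an adjusted p of 1.0 (edgeR). *Id2* had a log2 fold change of -0.57 (SE 0.31, exact permutation p = 0.171), which spanned -0.89 (without KO replicate 3) to -0.30 (without WT replicate 2) with 1 mouse left out. DESeq2 with sex called *Id2* at -0.79 (adjusted p = 0.00157). With sex as a covariate edgeR did not call it (log2 fold change -0.79, adjusted p = 0.555). With the cortical score as a covariate edgeR put *Id2* at -0.39, also not called. *Id2* and *Id3* were also singled out by the study from these same mice, so their direction is not independent evidence. Beside *Id3*, with its fold between 0.404 and 0.617 at 95%, the intervals of the BMP branch SMADs and *Smad4* held 1. These were 0.823 to 1.05 for *Smad1*, 0.814 to 1.31 for *Smad5*, 0.642 to 1.41 for *Smad9* and 0.818 to 1.20 for *Smad4*. An interval that holds 1 does not show equal levels, and a link of these levels with *Id3* was not tested. *Smad6* and *Smad7*, targets of the same pathway, had intervals of 0.530 to 1.27 and 0.770 to 1.08.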

How the data were processed

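PolyA-selected bulk RNA-seq of 8 mice was used. Per the labels and the study's methods, reads were converted with bcl2fastq 2.20 and quantified by the authors with Salmon against Gencode M29 of GRCm39. The authors deposited 1 table of unnormalized estimated counts by gene and, as Salmon wrote them, estimated counts, TPM and lengths by transcript for each mouse. How transcripts were summed to genes, and the strand setting, are not given in the sources used here. Columns were matched to mice by animal tag, and gene symbols came from an identifier table that named 51482 of 54307 rows.

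Estimated counts were rounded. Low counts were removed with filterByExpr and KO was compared with WT over 17669 genes with edgeR 4.0.16 in R 4.3.3 (TMM scaling, quasi-likelihood test, no covariates, Benjamini-Hochberg, threshold 0.1 as in the study). The study itself used DESeq2 and reports many more genes past that threshold than this fit called. The SE is the log2 fold change over the square root of F. CPM values are TMM-scaled, and log2 CPM has a prior count of 2. TPM were summed per gene only to compare levels between genes, because the median gene over 1 TPM differed by -0.06 log2 between KO and WT on that scale. Transcript names, types and coding lengths came from Gencode M21 of GRCm38, an older build, which matched 97.4% of transcripts and at least 99.16% of reads in each mouse. Its coordinates and those of RefSeq promoters (GRCm38.p6) serve only for the printed sequences. Exact tests permuted all 8 mice, in 4 against 4 for the shares (two-sided, difference of means).

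Members and gene lists were chosen with earlier results of these data known. Named were the 10 members, *Lrig1*, *Id1*, *Id2*, *Id3*, any other pathway gene past the threshold or else up to 3 in each direction with the smallest unadjusted p under 0.05, and the gene most correlated with each member. *Gm27301*, for its overlap, and *Zeb2*, called under 1 alternative, were named after their values were seen. Alternatives were DESeq2 1.42.0 (alone and with sex), DESeq2 size factors, no filter or at least 10 counts in every mouse, sex, cortical score or replicate number as a covariate, females alone, length offsets, a robust fit, shares of estimated reads and each mouse left out. The striatal score as a covariate was chosen after seeing the data. The scripts were tested on simulated data.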

Additional observations from a re-analysis of the deposited data

Results flagged for a closer look

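Groups of 4 mice were screened for 1 mouse set apart from the others by Dixon's test at 95%. They were the CPM and the transcript shares of the members and the 10 marker scores in each genotype. Of 56 groups, 3 held such a mouse. Chance gives about 1 in 20 for normally distributed values, a rate that need not hold for shares, which have a ceiling of 100%. *Skil* stood at 85.1 CPM in KO replicate 2, with the nearest KO mouse at 117. The leading transcript held 94.4% of *Smad4* TPM in WT replicate 2, with the nearest WT mouse at 98.9%. The leading transcript of *Smad7* held 86.2% of its TPM in KO replicate 4, and was the sole transcript detected in the other KO mice. Those mice tied at 100%, so any lower value would have been flagged.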

How the results depend on the processing

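Under all 20 alternatives 0 members were called and 0 had an unadjusted p under 0.05, and the lowest adjusted p of a member was 0.813. In 14 of the 200 member fits, across 5 members, the sign of the log2 fold change turned. It turned for *Smad4* with sex as a covariate (0.018, and 0.017 in DESeq2), for *Smad5* with the cortical score as a covariate (-0.038), for *Smad9* in females alone (0.24) and for *Smad2* with length offsets (-0.042). With 1 mouse left out the values spanned -0.095 to 0.063 for *Smad4* (other sign without WT replicates 1 or 3 or KO replicates 2 or 3), -0.088 to 0.14 for *Smad5* (WT replicate 2 or KO replicate 2), -0.26 to 0.065 for *Smad9* (WT replicate 2 or KO replicate 1) and -0.15 to 0.026 for *Skil* (KO replicate 2). The cause was not tested, and all of these values lay within the intervals of the fits.

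Of the pathway genes 0 were called, 1 (*Id3*) with DESeq2, 3 (*Id3*, *Id2* and the SMAD partner *Zeb2*) with DESeq2 and sex, and 0 to 1 with a mouse left out (*Id3* without WT replicate 2). Over all genes 1 was called, against 13 with DESeq2, 212 with DESeq2 and sex, 2 without the filter, with sex or with the cortical score, 3 in females alone, 0 with at least 10 counts or with the striatal score, and 0 to 3 with a mouse left out (0 without WT replicates 1 or 4, 3 without WT replicate 2, 2 without WT replicate 3). With the replicate block 0 genes and 0 members were called. The deviations of same-numbered mice correlated at 0.077, -0.22, -0.22 and 0.27, so the numbers do not pair the mice. Among the shares 0 members had an exact p under 0.05, and 0 to 1 with a mouse left out (*Smad2* without WT replicate 4). The difference in share turned for *Smad3* by estimated reads (0.047 percentage points) and in females alone (0.533), and with a mouse left out it spanned -0.366 to 0.809 for *Smad3*, -0.263 to 0.109 for *Smad1* and -2.67 to 1.94 for *Smad7*. Females alone, 3 against 2, cannot reach an exact p of 0.05. Depth limits *Smad6*, with 46 to 89 counts per mouse.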
